A study of Mus musculus with 18 samples.

Results

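Transitional lung macrophages (tnsIMs) were compared with monocyte-derived macrophages (moMs) in WT mice 24 h after inhaled LPS, the first of the maturation steps that the sorted populations of the inflamed lung describe. The comparison used the 3 WT moM and 3 WT tnsIM libraries among the 18 bulk RNA-seq libraries of the series, chosen by their labels for genotype and population and not by any measured value. Both populations came from perfused, dissociated lungs and were sorted as CD45+ CD11b+ cells outside the granulocyte gate, as Ly6C+ MHC-II- cells (moMs) or Ly6C+ MHC-II+ cells (tnsIMs). The matIMs, not part of the comparison, were sorted as MHC-II+ cells that had lost Ly6C. The WT mice carried Cre recombinase in the Cx3cr1 locus (B6.Cx3cr1tm1.1(cre)Jung/J) without floxed ezrin alleles, so they are Cre-bearing controls. This Cre is driven by a promoter of monocytes and macrophages, and Ezr-KOm mice carried the same Cre with floxed alleles of the ezrin gene (Ezr). All were C57BL/6 mice of both sexes, aged between 3 and 5 months, that breathed nebulized LPS of Pseudomonas aeruginosa (12.5 mg in 5 ml, over 15 min). The samples come from 3 mice of each genotype, and no untreated lung is part of the comparison.

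Classical monocytes leave the bone marrow through CCR2, enter inflamed tissue as Ly6C+ cells and can mature there into macrophages or into cells with features of dendritic cells. Maturation is marked by surface MHC class II, which presents peptides to CD4+ T cells and whose genes are switched on together by the co-activator CIITA at conserved promoter boxes. Lung interstitial macrophages are known for MHC class II, complement C1q and chemokines that call lymphocytes.

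Total counts ranged from 18443205 to 25924018 in the WT moM libraries and from 16512783 to 24106617 in the WT tnsIM libraries, the lowest total being that of WT tnsIM replicate 2. Values are given as CPM, counts relative to the library total scaled by TMM factors, with SD between 3 libraries where a mean is given, and a gene is said to rise or fall where its Benjamini-Hochberg adjusted p in edgeR's quasi-likelihood test was under 0.05. No length correction was made, so CPM levels are compared between populations and not between genes. Of 21254 genes in the table, 15811 passed the filter on low counts and were tested.

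The MHC class II genes of the gate followed the sort. The gate genes check the labels and are no finding. H2-Ab1 was at 1141, 1548 and 1356 CPM in WT moMs and 11427, 18399.8 and 7929.8 CPM in WT tnsIMs, and H2-Aa and H2-Eb1 were also higher in each tnsIM library than in any moM library. H2-Ea, which C57BL/6 mice cannot make into protein, stayed at or under 3 counts in each moM library. Ly6c2 was at 487, 469.8 and 488 against 288, 109.9 and 258 CPM, a fall of 1.14 on the log2 scale (adjusted p = 0.0374) that was lost in 8 of 15 alternatives, among them leaving out any WT moM library or WT tnsIM replicate 2 (adjusted p up to 0.194). Its close copy Ly6c1, which lung endothelium also expresses, was at 23.3, 19.2 and 14.5 against 69.00, 55.8 and 101 CPM (log2 fold change 1.99 ± 0.28 (SE), adjusted p = 6.28e-05). Reads of these near-identical genes can be split between them. Ptprc (CD45) was at 1634, 1716 and 1673 against 796, 809 and 1067 CPM and fell, and Itgam (CD11b) was at 295, 274 and 266 against 255, 202 and 199.9 CPM, a difference that did not pass the test (adjusted p = 0.134, and 0.0275 with the mouse as a replicate block, where it was called lower). Here and below, that block takes libraries of the same replicate number as 1 mouse, although the labels do not name mice. Of 10 general monocyte and macrophage markers 4 fell and 0 rose (2 fell without WT moM replicate 2 or 3 or WT tnsIM replicate 2), and Lyz2 was still at 12694 CPM in WT tnsIMs, against 23279 CPM in WT moMs.

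Markers of several other cell types were higher in each of the 3 tnsIM libraries, and their sums are given here for the gene groups that follow. Of all genes tested 13% rose and 8.61% fell. The 22 alveolar type 2 and airway epithelial genes summed to between 737 and 773 CPM in WT moMs, 3798 and 5371 CPM in WT tnsIMs and 1167 and 1278 CPM in WT matIMs, and of the 21 tested 16 rose and 1, Napsa, fell. The 16 endothelial genes all rose, from a sum of 212 to 276 CPM to a sum of 700 to 1092 CPM, and were at 122 to 165 CPM in matIMs. The 15 fibroblast and mesenchymal genes summed to between 46.7 and 67.3 CPM in moMs and 166 and 190 CPM in tnsIMs, and 12 rose. The 16 B and plasma cell genes went from 114 to 186 CPM to 283 to 459 CPM, with 13 risers, and reached 1521 to 2343 CPM in matIMs. A gene at low counts in moMs could pass the filter through matIMs. With a minimum of 10 counts in every library, which leaves out genes near the floor, 1 of the B and plasma cell genes rose. Of 17 genes of mature migratory dendritic cells 13 rose (8 with that minimum) and 1 fell, and their sum went from 714 to 773 CPM to 1217 to 1513 CPM and to between 8106 and 11513 CPM in matIMs. Of 19 neutrophil genes 10 rose and 3 fell while the sums overlapped, at 2089 to 2558 CPM in moMs and 2156 to 2566 CPM in tnsIMs. Ly6g, which defines neutrophils, was among the 10 but at 0.228, 0.0414 and 0.0394 against 0.918, 0.190 and 0.509 CPM, with groups that overlapped. The 15 alveolar macrophage genes, of which Chil3 is also a monocyte gene, summed to 5302 to 6610 CPM in moMs and 1197 to 1638 CPM in tnsIMs, and 6 rose while 2 fell (1 fell without WT moM replicate 2 or 3 or WT tnsIM replicate 1 or 2). Chil3 alone had means of 5905 and 1217 CPM, within mean sums of 6022 and 1390 CPM. The lower sum in tnsIMs is thus that of Chil3, and more of the listed genes rose than fell. Conventional dendritic cell genes summed to 332 to 385 CPM and 405 to 588 CPM, with 4 rises and 1 fall among 16. Plasmacytoid dendritic cell genes rose in 3 of 9 tested, genes of mast cells, basophils and eosinophils in 2 of 5, and platelet and erythroid genes in 0 of 8. The 18 T and NK cell genes gave 0 calls, with sums of 67.1 to 99.1 CPM and 63.4 to 95.8 CPM. In bulk RNA, fewer cells of a type and less RNA per cell cannot be told apart, and the part of these other cells in the results below was not tested.

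**Figure D1:**
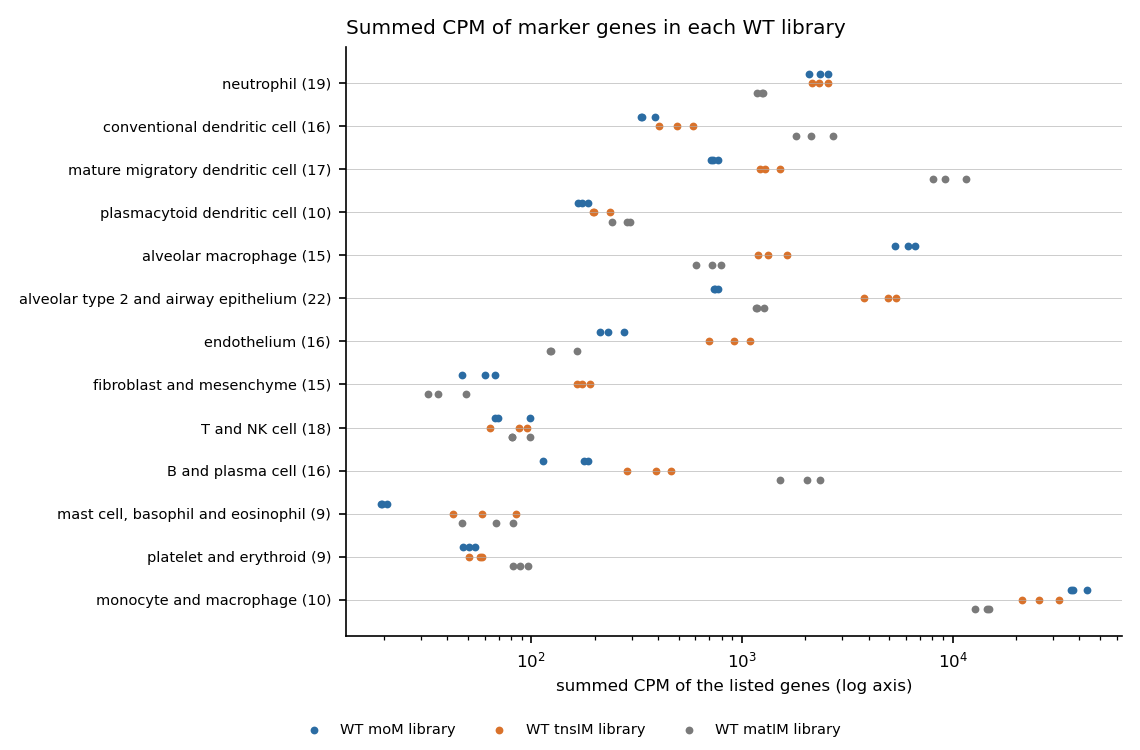
Summed CPM (log axis) of marker genes for 13 cell types, 1 point per WT library of moMs, tnsIMs and matIMs, with the number of listed genes in the table in brackets. Epithelial, endothelial and mesenchymal sums are highest in the 3 tnsIM libraries, the B cell and migratory dendritic cell sums are highest in matIMs, and the T and NK cell sums overlap.

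Of the 15811 genes tested, 3411 (21.6%) differed between WT tnsIMs and WT moMs. Of these, 2050 genes (13%) were higher in tnsIMs and 1361 genes (8.61%) were lower. The counts of each gene list below are to be set beside these shares. The lists, that of classical monocyte genes among them, were chosen with earlier results of these data known. Their counts are thus a description and no independent test. Rises were larger than falls: the median log2 fold change was 1.97 among risers and -0.83 among fallers, against 0.01 over all genes tested. A change of more than 2-fold was found for 1624 risers and 471 fallers, and one of more than 8-fold for 482 risers and 24 fallers. Among the tested genes 574 were at or under 3 counts in each WT moM library and 127 were so in each WT tnsIM library. The 3 tnsIM libraries lay wholly above the 3 moM libraries for 1964 of the risers, and wholly below them for 1309 of the fallers (over all genes tested, 19.6% lay above and 16.4% below). By the rule of the study, an unadjusted p under 0.05 with a log2 fold change beyond 0.75 in either direction, 2272 genes (14.4%) were higher and 1042 (6.59%) lower. With the mouse as a replicate block, 2627 genes rose and 2120 fell. Without WT moM replicate 3 the fallers numbered 894.

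**Figure D2:**
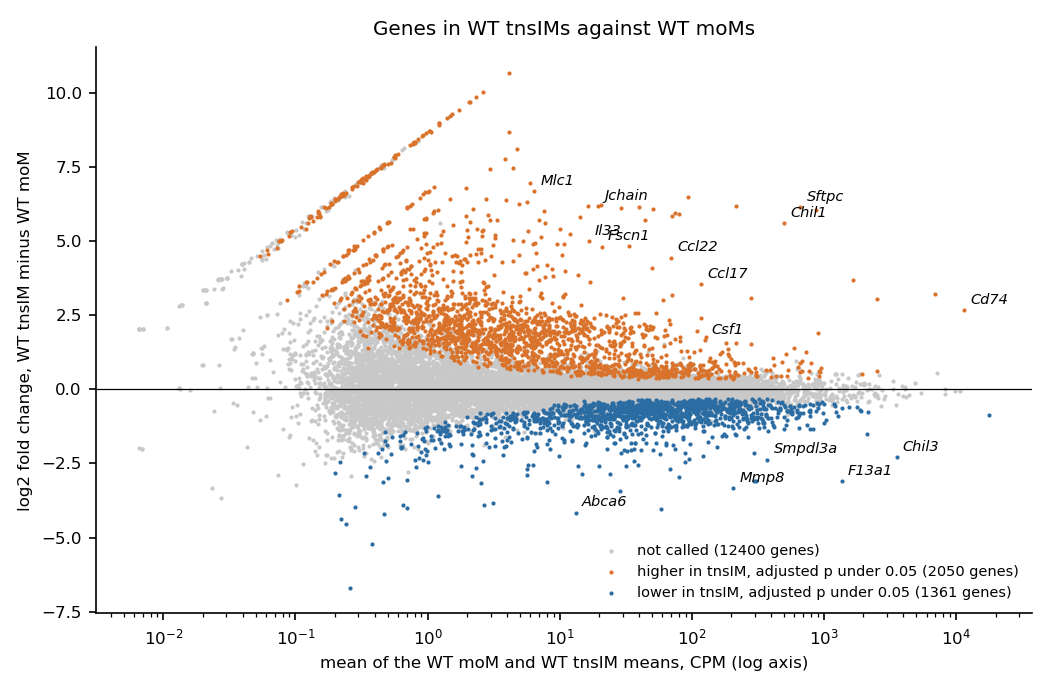
Each point is 1 of the 15811 genes tested, with the mean level of both WT populations in CPM (log axis) against the log2 fold change of WT tnsIMs over WT moMs. The 2050 risers spread further from 0 than the 1361 fallers, and many of the steepest risers lie at low levels.

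The smallest p of all tested genes belonged to Ccl22 (ENSMUSG00000031779, chromosome 8, 95472218 to 95478327, on GRCm39), a chemokine that draws CCR4+ T cells. It was at 5.69, 6.38 and 6.38 CPM in WT moMs and 124, 147 and 132 CPM in WT tnsIMs (log2 fold change 4.44 ± 0.24 (SE), adjusted p = 4.12e-09). No tnsIM library came near a moM library, and the spread within each population was small. Among the 12 risers with the smallest p were also Fscn1, the actin-bundling protein of dendritic protrusions (1.02, 1.37 and 1.81 against 32.96, 40.2 and 47.5 CPM), the MHC class II genes H2-Eb1, H2-Aa and H2-DMb2, and Clu, a secreted chaperone (5.64, 5.18 and 5.63 against 72.6, 97.5 and 113 CPM). The same 12 held Muc1, Lamp3 and Chil1, which alveolar type 2 or airway epithelium expresses, and Fcer2a, the low-affinity IgE receptor CD23 of B cells. Chil1 was at 25.8, 15.5 and 19.9 CPM in WT moMs and 814, 1073 and 1078 CPM in WT tnsIMs and at a mean of 115 CPM in matIMs. Slc39a4, a zinc importer, and Ppic, a cyclophilin, completed them, at 3.76, 1.70 and 2.20 against 26.5, 32.7 and 34.2 CPM and 1.42, 1.37 and 1.57 against 9.97, 15.6 and 13.05 CPM.

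The 12 fallers with the smallest p were led by Smpdl3a (ENSMUSG00000019872, chromosome 10, 57670431 to 57687926), a secreted phosphodiesterase. It was at 550.2, 672 and 661 CPM in WT moMs and 111, 118 and 134 CPM in WT tnsIMs (log2 fold change -2.38 ± 0.14 (SE), adjusted p = 6.75e-09). Mgst1, a microsomal glutathione transferase of monocytes, was at 197, 189 and 214 against 35.00, 47.7 and 44.3 CPM, and Ugt1a7c, a glucuronosyltransferase, at 85.5, 106 and 105 against 30.1, 27.8 and 26.6 CPM. Itgb7, an integrin chain of homing leukocytes, was at 378, 543 and 521 against 92.1, 101 and 129 CPM, and Arhgap15, a Rac-regulating protein, at 116, 111 and 135 against 26.9, 30.4 and 33.03 CPM. Dgkg, a diacylglycerol kinase, was at 54.5, 54.1 and 55.7 against 7.55, 8.81 and 10.97 CPM. For each of these genes the populations did not overlap. Rab36, Ms4a8a, F5, Ifitm6 and Hp were also among the 12.

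**Figure D3:**
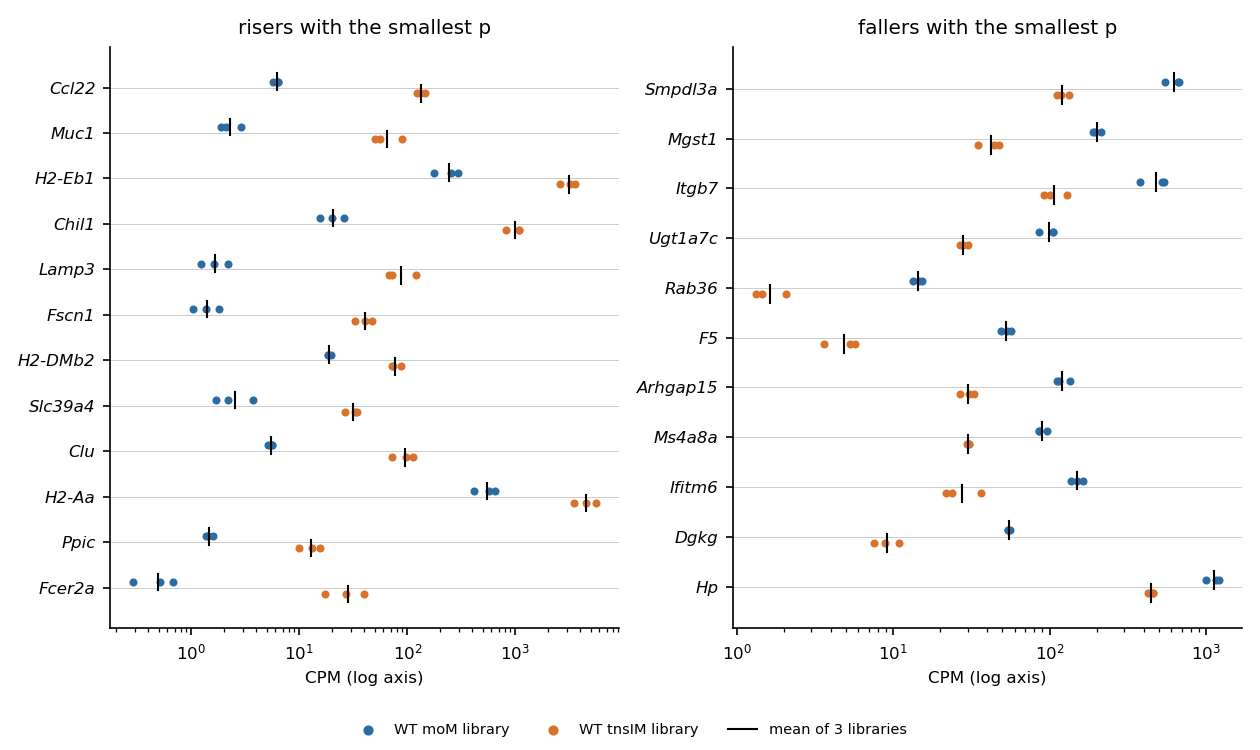
CPM (log axis) of the 12 risers and of 11 of the 12 fallers with the smallest p, 1 point per library for WT moMs and WT tnsIMs and a bar at each mean of 3. Within each of the 23 genes shown the populations do not overlap.

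Genes of the MHC class II pathway outside the gate rose with the gate genes. The sort separated the cells by MHC-II, whose genes share the co-activator CIITA. The gate thus in part fixed this rise in advance, and it is no independent finding. Of 15 genes that load peptides onto class II molecules or drive their transcription, 8 rose and 1 fell, and the median log2 fold change was 0.94 (0.01 over all genes tested). Of the list, 8 genes rose also with each of the 6 libraries left out in turn. Shown first are the promoters of a pair of gate genes and of 3 risers outside the gate, since these genes moved together and share a known regulator. The letters are the bases from 130 to 31 before the annotated start, 5′ to 3′ on the strand of the gene, from RefSeq on GRCm38.p6 (the counts themselves are on GRCm39). Capitals mark TGATTGG, the core of the Y box, and AGNNACNGATG, an X box pattern, both searched on both strands. TGATTGG is in all 5, and AGNNACNGATG is in H2-Eb1 and H2-DMb1:
H2-Aa (chr17:34287854-34287953, minus strand): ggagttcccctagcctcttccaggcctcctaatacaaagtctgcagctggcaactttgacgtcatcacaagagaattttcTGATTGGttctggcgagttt
H2-Eb1 (chr17:34305737-34305836, plus strand): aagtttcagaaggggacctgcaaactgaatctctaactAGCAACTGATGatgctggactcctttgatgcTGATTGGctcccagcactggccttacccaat
H2-DMb1 (chr17:34153061-34153160, plus strand): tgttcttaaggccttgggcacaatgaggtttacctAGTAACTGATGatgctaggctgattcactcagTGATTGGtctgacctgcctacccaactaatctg
H2-DMb2 (chr17:34145119-34145218, plus strand): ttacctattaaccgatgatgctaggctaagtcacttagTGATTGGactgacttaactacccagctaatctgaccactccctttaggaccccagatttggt
H2-Ob (chr17:34238775-34238874, plus strand): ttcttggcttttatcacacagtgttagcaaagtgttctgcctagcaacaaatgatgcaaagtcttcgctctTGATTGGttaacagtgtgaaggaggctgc

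Of the 12 class II genes that rose, gate genes included, 8 had a promoter entry, and 7 of these held TGATTGG within 250 bases before the start, against 7.23% of all 32851 entries. AGNNACNGATG was in 4 of the 8, against 0.816% of all entries. Of the other 7 genes of the lists 6 had an entry, and 1 of them, Rfx5, held TGATTGG. H2-Ab1, H2-Ea, Cd74, Ciita and Rfxap had no entry. The letters were chosen with these promoters in view, and a match describes the sequence only. The rise of the gate genes was set by the sort, so these counts do not link a motif to a rise.

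Cd74, the invariant chain that guides class II molecules, was at 2765, 3609 and 3081 CPM in WT moMs and 17462, 30295 and 11997 CPM in WT tnsIMs (log2 fold change 2.66 ± 0.28 (SE), adjusted p = 3.6e-06). WT tnsIM replicate 2 was the highest and replicate 3 the lowest, and all 3 lay far above the moM libraries. Ciita, the co-activator, was at 24.5, 35.9 and 42.9 against 83.6, 95.9 and 128 CPM (log2 fold change 1.57 ± 0.30 (SE), adjusted p = 0.000938), again without overlap. H2-DMb2 was at 18.6, 19.6 and 18.2 against 71.8, 87.6 and 73.4 CPM (log2 fold change 2.05 ± 0.15 (SE), adjusted p = 1.18e-07), a tight pair of groups for a chain of the peptide exchanger H2-DM. H2-DMb1 was at 310.3, 427 and 413 against 1217, 1822 and 1241 CPM and H2-DMa at 426, 497 and 477 against 935, 1036 and 715 CPM, while H2-Ob, which restrains H2-DM and is best known from B cells, was at 4.44, 4.23 and 4.13 against 14.5, 20.2 and 24.9 CPM. Rises on the log2 scale were 1.90 for H2-DMb1, 0.94 for H2-DMa and 2.22 for H2-Ob. H2-Ob and H2-DMb2 reached 92.5 and 446 CPM in matIMs, where the summed B cell markers were also highest. The 1 faller (2 with the mouse as a replicate block) was Marchf1, the ubiquitin ligase that removes class II from the surface, at 94.05, 96.05 and 109 against 59.1, 57.7 and 72.9 CPM (log2 fold change -0.66 ± 0.15 (SE), adjusted p = 0.00442). The proteases Ctss and Lgmn, the reductase Ifi30 and the RFX subunits Rfx5, Rfxank and Rfxap gave no call.

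Of 16 class I pathway genes 4 rose (Tap2, Calr, Psmb8 and H2-Q6) and 0 fell, with a median of 0.16. Tap2, a subunit of the peptide transporter, was at 92.00, 75.8 and 112 against 135, 142 and 151 CPM (log2 fold change 0.61 ± 0.17 (SE), adjusted p = 0.0122). The heavy chains H2-K1 and H2-D1 did not pass the test, with log2 differences of 0.16 and -0.13. The 4 risers became 1 without any of the WT moM libraries and 2 without WT tnsIM replicate 1. Of 18 costimulatory and checkpoint ligands 4 rose and 1 fell (22.2% and 5.56%, against 13% and 8.61% of all genes tested). Cd200, an inhibitory ligand, was at 17.6, 17.1 and 15.9 against 53.1, 80.1 and 86.8 CPM (log2 fold change 2.12 ± 0.20 (SE), adjusted p = 1.16e-06), and Nectin2, an adhesion ligand of TIGIT, at 3.76, 5.47 and 5.79 against 15.4, 22.9 and 19.1 CPM (log2 fold change 1.92 ± 0.20 (SE), adjusted p = 3.09e-06). Both are also expressed by endothelium or epithelium, whose markers rose in the same libraries. Pdcd1lg2 (PD-L2) was at 4.50, 2.36 and 1.26 against 7.26, 5.77 and 8.19 CPM, and the adhesion molecule Icam1 at 620.4, 657 and 704 against 838, 834 and 931 CPM. Vsir, the checkpoint ligand VISTA of resting myeloid cells, was at 382, 518 and 521 against 198, 235 and 229.9 CPM (log2 fold change -1.10 ± 0.18 (SE), adjusted p = 0.000268). The classical ligands Cd80, Cd86 and Cd40 had log2 differences of 0.22, 0.24 and 0.41, and none passed the test. Cd40 did with the mouse as a replicate block (adjusted p = 0.0268).

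Classical monocyte genes fell. Of 22 listed genes 15 fell and 0 rose (8.61% of all genes tested fell), the median log2 fold change was -1.19, and the summed level went from 53883 to 60493 CPM in moMs to 26558 to 35112 CPM in tnsIMs. Between 14 and 16 of them fell when each library was left out in turn. Ccr2, the receptor that brings monocytes out of the bone marrow, was at 1443, 1534 and 1746 CPM in WT moMs and 767, 973 and 1029.6 CPM in WT tnsIMs (log2 fold change -0.77 ± 0.18 (SE), adjusted p = 0.00462), without overlap. Of the 3 coagulation factors on the list 2 fell: F13a1 was at 2163, 2559 and 2607 against 181, 341 and 328 CPM and F5 at 53.3, 48.9 and 56.5 against 5.67, 3.61 and 5.29 CPM, with log2 fold changes of -3.11 ± 0.47 and -3.43 ± 0.33 (SE). The other, F10, was at 376, 378 and 325 against 359.7, 268 and 296 CPM and gave no call (adjusted p = 0.442). Ifitm6 was at 164, 149 and 137 against 21.9, 36.7 and 23.6 CPM, and Hp, the haemoglobin scavenger haptoglobin, at 1004, 1159 and 1211 against 425, 456 and 461 CPM. Cd177, a surface protein of neutrophils and of some monocytes, was at 473, 586 and 587 against 52.9, 66.9 and 75.1 CPM (log2 fold change -3.08 ± 0.33 (SE), adjusted p = 4.82e-06), and Mmp8, the collagenase stored in neutrophil granules, at 422, 299 and 408 against 35.9, 38.4 and 37.1 CPM (log2 fold change -3.34 ± 0.38 (SE), adjusted p = 8.09e-06). Chil3, a secreted chitinase-like protein of monocytes and alveolar macrophages, was at 5178, 6039.8 and 6496 against 1183, 998 and 1469 CPM (log2 fold change -2.28 ± 0.30 (SE), adjusted p = 2.88e-05). Fn1 (fibronectin) was at 4435, 4583 and 4622 against 5086, 2237 and 4074 CPM and gave no call (adjusted p = 0.658), its low library being WT tnsIM replicate 2. Over all genes, the largest fall at a mean of 10 CPM or more was that of Abca6, a lipid transporter, at 19.6, 25.5 and 30.2 against 0.751, 1.40 and 2.04 CPM (log2 fold change -4.16 ± 0.65 (SE), adjusted p = 0.000168), and the 10 largest falls also held F5, Mmp8, Rab36, F13a1, Cd177, Arhgef37, Rspo1 and Bmx. Arhgef37 went from 143 to 18.3 CPM, Rspo1, a WNT agonist, from 10.02 to 1.37 CPM and Bmx, a Tec-family kinase, from 26.02 to 3.55 CPM in the mean of 3 libraries.

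Some chemokines that attract lymphocytes were among the risers and others were not. Of the latter, Cxcl9, Cxcl10 and Cxcl11 gave no call (adjusted p = 0.459, 0.922 and 0.838). Their means were 56.0, 542 and 11.2 CPM in WT moMs and 100, 520 and 12.7 CPM in WT tnsIMs. Of 15 CC chemokines 6 rose and 1 fell, with a median of 0.63. Ccl17, which like Ccl22 binds CCR4, was at 15.9, 25.1 and 14.4 against 173, 352 and 124 CPM (log2 fold change 3.55 ± 0.45 (SE), adjusted p = 2.54e-05), and Ccl20, the ligand of CCR6 made by epithelium and activated macrophages, was at 0.179 ± 0.243 CPM in moMs and 3.32 ± 0.515 CPM in tnsIMs. Ccl19, a ligand of CCR7, was at or under 3 counts in each moM library and at least 4.72-fold higher in tnsIMs, counting each moM library at 3 counts. Ccl3 was at 952, 635 and 588 against 1259, 1348 and 983 CPM, and Ccl6 fell to 1248 from 1884 CPM. Without WT moM replicate 2 the rises in this list numbered 3, and the fall of Ccl6 was lost without WT moM replicate 1, WT tnsIM replicate 2 or WT tnsIM replicate 3. Of 15 CXC and other chemokines 6 rose and 0 fell. Cxcl16, the membrane-bound ligand of CXCR6, was at 365, 280.1 and 305 against 723, 760.1 and 664 CPM (log2 fold change 1.18 ± 0.16 (SE), adjusted p = 4.07e-05). Cxcl13, which guides B cells, was at 1.02, 0.622 and 0.945 against 14.1, 27.3 and 18.6 CPM (log2 fold change 4.53 ± 0.50 (SE), adjusted p = 5.88e-06), and Cx3cl1, the ligand of CX3CR1, at 3.30, 4.10 and 4.61 against 17.1, 22.2 and 28.2 CPM. Cxcl5, a neutrophil attractant of alveolar type 2 cells, was at 0.968, 0.497 and 0.709 against 10.2, 12.6 and 13.05 CPM. The abundant neutrophil attractant Cxcl2 was at 4999.9, 3395 and 2949 against 5965, 3066 and 3083 CPM and gave no call. Ccl22, Cx3cl1 and Ccl17 lie in one stretch of chromosome 8 on GRCm39, with no other protein-coding gene of the table between them (Ccl22 at 95472218 to 95478327, Cx3cl1 at 95498637 to 95509055 and Ccl17 at 95537081 to 95538664), and all 3 rose.

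Of 19 chemokine and S1P receptors tested 6 rose and 3 fell (31.6% and 15.8%, against 13% and 8.61% of all genes tested). Ccr7, which steers mature dendritic cells to lymph nodes, was at 16.3, 14.3 and 9.76 CPM in WT moMs and 99.9, 128 and 94.5 CPM in WT tnsIMs (log2 fold change 3.00 ± 0.26 (SE), adjusted p = 4.61e-07) and reached 1815 CPM in matIMs. S1pr1, a receptor for exit from tissue that endothelium also carries, was at 21.01, 30.2 and 20.8 against 50.9, 98.7 and 94.7 CPM (log2 fold change 1.76 ± 0.28 (SE), adjusted p = 0.0002), and was at 23.4 CPM in matIMs, where the endothelial sum was also low. Cxcr5, the B cell receptor for CXCL13, was at 1.20, 0.539 and 0.512 against 3.92, 5.39 and 6.58 CPM, and Ackr3, a scavenging receptor of endothelium and mesenchyme, at 3.36, 3.94 and 1.81 against 8.55, 16.7 and 15.8 CPM. The 3 fallers were the monocyte receptors Ccr1, Ccr2 and Cx3cr1. Cx3cr1, the locus that holds the Cre allele in these mice, was at 132, 105 and 141 against 54.3, 44.1 and 88.1 CPM (log2 fold change -1.02 ± 0.28 (SE), adjusted p = 0.015), and its call was lost in 3 of the 15 alternatives.

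Of 25 cytokines and inhibitors 6 rose and 2 fell (13% and 8.61% of all genes tested), with a median of 0.20. Csf1, the macrophage growth factor, was at 72.6, 63.1 and 45.7 CPM in WT moMs and 149, 208 and 217 CPM in WT tnsIMs (log2 fold change 1.66 ± 0.22 (SE), adjusted p = 3.16e-05). Il23a and Il36g, inflammatory cytokines of activated myeloid and epithelial cells, rose as well. Il23a was at 87.4, 129 and 84.1 against 181, 323 and 209.6 CPM, and Il36g at 15.7 ± 6.36 CPM in WT moMs and 72.1 ± 26.5 CPM in WT tnsIMs (SD, n = 3). Il33, an alarmin of alveolar type 2 and stromal cells, was at 1.48, 0.746 and 0.866 against 25.2, 38.6 and 32.5 CPM (log2 fold change 4.99 ± 0.41 (SE), adjusted p = 2.68e-07), and at 3.31 CPM in matIMs. The summed epithelial markers followed the same order over the 3 populations, and a part of epithelial cells in the Il33 values was not tested. Il6 fell, from 469 ± 94.6 to 223 ± 42.8 CPM (log2 fold change -1.07 ± 0.22 (SE), adjusted p = 0.00146), and Il15 was at 15.3, 17.2 and 19.7 against 6.88, 10.1 and 10.3 CPM. Tnf and Il1a were at 654, 356 and 442 against 1007, 550.2 and 763 CPM and 2225, 1228 and 1214 against 2552, 2148 and 1951 CPM, with groups that overlapped and adjusted p-values of 0.185 and 0.233. Both were higher in tnsIMs in each of the 3 same-numbered pairs, and with the mouse as a replicate block both passed the test (adjusted p = 0.000632 and 0.00924). With the mouse as a replicate block 10 of the 25 rose, and 1 of the 2 falls was lost without WT moM replicate 2 or 3 or WT tnsIM replicate 1 or 2.

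Of 26 interstitial and resident macrophage genes 9 rose and 5 fell. The 3 chains of C1q, which opens the classical complement pathway and is made by tissue macrophages, rose together: C1qb was at 367, 293 and 319 CPM in WT moMs and 973, 943 and 674 CPM in WT tnsIMs (log2 fold change 1.40 ± 0.23 (SE), adjusted p = 0.000213), C1qc at 160.3, 127 and 144 against 435, 518 and 290.04 CPM and C1qa at 106, 79.8 and 89.3 against 327, 274 and 209 CPM. Cd63, a tetraspanin of lysosomes and exosomes, was at 162, 107 and 97.3 against 266, 293 and 231 CPM. Lyve1, a hyaluronan receptor of perivascular macrophages and of lymphatic endothelium, was at 14.9, 12.7 and 8.15 against 53.8, 37.98 and 57.4 CPM but at 5.02 CPM in matIMs, and Gas6, a bridging ligand for dying cells, was at 3.64, 2.98 and 1.81 against 11.5, 14.9 and 11.8 CPM. Timd4, a phosphatidylserine receptor, was at 0.399, 0.0414 and 0.157 against 1.79, 1.52 and 1.49 CPM. The fallers included Cd163, Adgre1, Cx3cr1 and Trem2. Adgre1 (F4/80) was at 406, 419.6 and 455 against 268, 253 and 303 CPM (log2 fold change -0.63 ± 0.20 (SE), adjusted p = 0.0271), and Trem2, a lipid receptor, at 55.6, 63.2 and 56.3 against 47.1, 39.5 and 30.7 CPM. The fallers of the list numbered 1 or 2 when any of the 6 libraries was left out, 3 with upper-quartile scaling and 2 with library totals.

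Of 20 complement genes tested 9 rose and 2 fell, with a median of 0.69. Besides C1q these included Itgax (CD11c), at 256, 291 and 259.7 against 671, 457 and 537 CPM (log2 fold change 1.05 ± 0.17 (SE), adjusted p = 0.000243), while CD11c+ cells had been removed in the sort, and Serping1, the C1 inhibitor, at 13.2, 10.3 and 8.11 against 40.3, 73.9 and 34.3 CPM. Cd55, which limits complement on the cell surface, was at 1.42, 0.994 and 0.709 against 5.51, 5.07 and 9.91 CPM. Cr1l, a membrane regulator, was among the fallers at 96.6, 92.2 and 96.1 against 64.9, 68.6 and 76.8 CPM. The 2 falls became 1 without WT tnsIM replicate 1 and 4 with the mouse as a replicate block. Of 22 lipid handling genes 4 rose and 1 (Trem2) fell (18.2% and 4.55%, against 13% and 8.61% of all genes tested). The call of Trem2 was lost in 11 of the 15 alternatives. Cd36, a scavenger receptor of macrophages and of lung endothelium, was at 116, 92.7 and 105 against 203, 242 and 369.9 CPM (log2 fold change 1.38 ± 0.21 (SE), adjusted p = 0.00016). Nr1h3, the oxysterol-sensing receptor LXRα, was at 68.9, 73.4 and 62.05 against 126, 152 and 102 CPM (log2 fold change 0.90 ± 0.16 (SE), adjusted p = 0.000464), its target Abcg1 at 62.5, 58.9 and 62.8 against 71.3, 96.7 and 82.99 CPM and Ch25h, which makes 25-hydroxycholesterol, at 7.12, 6.09 and 8.23 against 19.5, 19.97 and 25.4 CPM. Apoe, the main lipid carrier of macrophages, was at 1928, 2924 and 2601 against 1397, 2670.3 and 1601 CPM, without a call. Of 20 cholesterol synthesis genes 2 rose (Pmvk and Mvk, enzymes of the mevalonate pathway) and 0 fell. The share that rose, 10%, was under the 13% of all genes tested. With the mouse as a replicate block 9 of these 20 rose. They numbered 4 without WT moM replicate 2 and 1 without WT tnsIM replicate 2.

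Of 33 lineage transcription factors 5 rose and 4 fell (15.2% and 12.1%), near the 13% and 8.61% of all genes tested. Zbtb46, the marker factor of classical dendritic cells that endothelium also uses, was at 2.39, 4.93 and 3.15 against 10.4, 23.3 and 19.9 CPM (log2 fold change 2.34 ± 0.28 (SE), adjusted p = 1.45e-05) and at 119.98 CPM in matIMs. Egr2, an early-growth-response factor of activated macrophages, was at 601, 509 and 519 against 779, 1000.5 and 711 CPM. Zeb2, which keeps monocyte and macrophage identity, was at 417, 381 and 414 against 267, 167 and 330.2 CPM, Batf at 75.5, 76.4 and 85.9 against 52.4, 56.4 and 54.1 CPM and Tfec at 31.7, 30.1 and 30.00 against 20.9, 20.99 and 18.6 CPM. Spi1 (PU.1), the master factor of myeloid cells, was at 587, 614 and 653 against 595, 1014 and 550.5 CPM, without a call. The 4 fallers became 1 without WT moM replicate 3 and 2 without WT moM replicate 1, WT tnsIM replicate 2 or WT tnsIM replicate 3. Of 18 C-type lectin receptors tested 4 rose and 4 fell (22.2% each, against 13% and 8.61% of all genes tested). Mgl2, a galactose lectin of dermal dendritic cells and alternatively activated macrophages, was at 4.67, 8.00 and 6.26 against 52.1, 76.8 and 33.6 CPM (log2 fold change 3.09 ± 0.29 (SE), adjusted p = 1.27e-06), Clec4n (dectin-2) at 627, 586 and 465 against 965, 1384 and 769 CPM, and Clec4a3 and Clec4a1, receptors with close copies in the same cluster, fell to 153 from 290.4 CPM and to 95.5 from 175 CPM. The 4 lectin fallers became 2 with upper-quartile scaling, with library totals or without WT moM replicate 2 or 3 or WT tnsIM replicate 1 or 2. The 4 Fc receptor genes that rose (Fcer2a, Pigr, Fcrla and Fcmr) are B cell or epithelial genes. With a minimum of 10 counts in every library 0 Fc receptor genes rose. The macrophage Fcγ receptors Fcgr1, Fcgr2b and Fcgr3 had log2 differences of -0.22, 0.25 and -0.29, and none passed the test.

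Of 25 pattern recognition receptors and adaptors, which sense microbial products, 8 fell and 1 rose (8.61% of all genes tested fell), with a median of -0.44. Tlr8, a receptor for single-stranded RNA, was at 43.2, 53.04 and 53.6 against 10.3, 8.50 and 17.2 CPM (log2 fold change -2.05 ± 0.30 (SE), adjusted p = 9.04e-05), and its neighbour in function Tlr7 at 79.8, 92.7 and 98.3 against 34.2, 32.02 and 45.4 CPM (log2 fold change -1.28 ± 0.20 (SE), adjusted p = 0.000192). Irak4, the first kinase after MYD88, was at 54.3, 63.02 and 60.7 against 33.1, 24.1 and 39.2 CPM, and Ticam2, the adaptor that couples TLR4 to interferon, at 41.6, 35.9 and 46.7 against 24.7, 24.4 and 28.8 CPM. Tlr2 was at 1444, 1667 and 1488 against 1234, 1385 and 1326 CPM and did not pass the test (adjusted p = 0.221), and Tlr3, the 1 riser, was at 3.76, 2.36 and 3.62 against 5.01, 5.64 and 7.80 CPM. The 8 fallers became 5 without WT tnsIM replicate 1 or 2, and the 1 rise was lost without WT moM replicate 2, WT moM replicate 3 or WT tnsIM replicate 3. Of 16 inflammasome and pyroptosis genes 7 fell and 0 rose, with a median of -0.64, and between 6 and 8 fell with a library left out. Naip5, the cytosolic flagellin receptor, was at 52.9, 63.7 and 58.1 against 22.5, 15.3 and 35.7 CPM (log2 fold change -1.24 ± 0.24 (SE), adjusted p = 0.000983). Mefv (pyrin) was at 263, 274 and 213 against 119, 138 and 137 CPM, Casp4, the sensor of cytosolic LPS, at 120.1, 80.6 and 89.3 against 49.8, 34.1 and 54.3 CPM, and Aim2, the DNA sensor, at 27.5, 23.4 and 28.5 against 11.6, 6.91 and 20.96 CPM. Nlrp3 was at 655, 537 and 474 against 684, 331 and 552 CPM, with groups that overlapped, and gave no call. Of 33 interferon-stimulated genes tested 4 fell (Oas2, Oas3, Ifi204 and Trim30a) and 0 rose, with a median of -0.06. The share that fell, 12.1%, was near the 8.61% of all genes tested. Oas2 was at 119, 146 and 112 against 67.04, 62.3 and 69.8 CPM (log2 fold change -0.92 ± 0.23 (SE), adjusted p = 0.00685), while Isg15 and Ifit1 gave no call (with the mouse as a replicate block Isg15 was called higher, adjusted p = 0.0133). With the mouse as a replicate block 11 of them fell and 6 rose, and without a library between 1 and 4 fell, the 4 staying only without WT tnsIM replicate 3.

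Of 32 lysosomal genes 7 fell and 2 rose (21.9% and 6.25%, against 8.61% and 13% of all genes tested), with a median of -0.15. Lamp2, a membrane protein needed for fusion with autophagosomes, was at 745, 690.1 and 679.7 against 356, 299.6 and 374 CPM (log2 fold change -1.04 ± 0.14 (SE), adjusted p = 3.16e-05). Man2b1, a lysosomal mannosidase, was at 526, 712 and 715 against 310.2, 370.4 and 345 CPM, Atp6v1a, a subunit of the proton pump, at 307, 331 and 325 against 201, 152 and 216 CPM, and Ctse at 13.8, 19.8 and 23.2 against 5.55, 4.63 and 6.94 CPM. Without WT moM replicate 3 the fallers numbered 4, and with the mouse as a replicate block 11. The 2 rises became 1 without WT moM replicate 2 or 3 or WT tnsIM replicate 2. Of 22 glycolysis genes 1 (2 with the mouse as a replicate block) rose (Slc2a3, a glucose transporter, at 7.12, 5.06 and 5.71 against 8.64, 16.4 and 19.1 CPM) and 0 (2 with the block) fell. The share that rose, 4.55%, was under the 13% of all genes tested. Of 20 arginine, itaconate and polarization genes 2 rose (Retnla and the iron exporter Slc40a1) and 2 fell (Chil3 and Cd163). These shares, 10% each, were near the 13% and 8.61% of all genes tested. With the mouse as a replicate block 5 rose and 4 fell, and with a library left out between 1 (WT moM replicate 3) and 4 (WT tnsIM replicate 2) rose. The 2 falls became 1 without WT moM replicate 1 or 2 or WT tnsIM replicate 1 or 3. Retnla went from 0.446 to 5.88 CPM, and Arg1 was at 463, 362 and 315 against 262, 243 and 198 CPM, below the moM libraries but without a call (adjusted p = 0.179). It was called lower with the mouse as a replicate block (adjusted p = 0.00155).

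Of 23 integrins tested 6 rose and 2 fell (13% of all genes tested rose and 8.61% fell). The fallers were the leukocyte chains Itgb7 (log2 fold change -2.16 ± 0.20 (SE), adjusted p = 1.08e-06) and Itga4, which pair with each other, and Itga4 was at 174, 138 and 169 against 86.6, 39.7 and 97.5 CPM. The risers Itga3, Itga7, Itga9, Itgax, Itgb4 and Itgb6 are, apart from Itgax, best known from epithelium, endothelium, muscle or other stroma: Itga9 was at 13.3, 10.3 and 11.3 against 39.7, 26.6 and 40.2 CPM, Itga3 at 4.27, 4.43 and 2.24 against 14.98, 10.6 and 16.2 CPM and Itgb6 at 0.797, 0.249 and 0.433 against 4.797, 3.74 and 6.11 CPM, and Itga3, Itgb6 and Itga7 were at 1.64, 0.442 and 1.56 CPM in matIMs. Without WT tnsIM replicate 3, and with the mouse as a replicate block, 5 integrins fell. Of 39 cortical actin and focal adhesion genes 9 rose and 6 fell (23.1% and 15.4%, against 13% and 8.61% of all genes tested), with a median of -0.16. Ptk2, which codes for focal adhesion kinase (FAK), was at 4.21, 5.43 and 4.88 against 9.26, 14.5 and 19.3 CPM (log2 fold change 1.56 ± 0.25 (SE), adjusted p = 0.000204), Csrp1, an actin-bundle protein, at 22.7, 21.9 and 23.8 against 60.2, 60.4 and 70.1 CPM and Myo1e, a membrane-bound myosin, at 175, 148 and 139 against 245, 314 and 264 CPM. Zyx (zyxin) was at 790.3, 869 and 909 against 587, 582 and 608 CPM and Flna (filamin A) at 2086, 2446 and 2387 against 1545, 923 and 1840.0 CPM, and both fell, as did the PI3-kinase catalytic genes Pik3cd, at 247, 331 and 395 against 179.97, 118 and 195 CPM, and Pik3cg, at 123, 145 and 149 against 76.7, 65.1 and 111 CPM. The 6 fallers became 2 without WT moM replicate 2 or 3 or WT tnsIM replicate 1 or 2, and 10 with the mouse as a replicate block. With upper-quartile scaling they numbered 3 and with library totals 2. The linkers of the membrane to actin, Ezr, Rdx and Msn, gave no call. Ezr was at 503, 593 and 497 CPM in WT moMs and 679, 515 and 565 CPM in WT tnsIMs (log2 fold change 0.14 ± 0.24 (SE), adjusted p = 0.722).

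Of 27 matrix proteases and inhibitors tested 11 rose and 2 fell (13% and 8.61% of all genes tested), with a median of 0.62. Mmp12, the macrophage elastase, was at 116, 122 and 88.3 against 343, 389 and 241 CPM (log2 fold change 1.57 ± 0.29 (SE), adjusted p = 0.000689), Mmp14, a membrane-bound collagenase, at 487, 443 and 452 against 966, 883 and 715 CPM (log2 fold change 0.89 ± 0.14 (SE), adjusted p = 0.00023), and Mmp9, a gelatinase, at 8.82, 10.3 and 4.45 against 29.1, 41.5 and 56.7 CPM (log2 fold change 2.44 ± 0.46 (SE), adjusted p = 0.00079). Timp3, the inhibitor held in matrix by stromal cells, was at 12.8 ± 4.29 CPM in WT moMs and 45.1 ± 8.19 CPM in WT tnsIMs (SD, n = 3), and at 5.02 CPM in matIMs, and Mmp2, a gelatinase of fibroblasts, was at 4.27, 3.23 and 2.48 against 7.01, 12.4 and 7.84 CPM. The fallers were Mmp8 and Serpinb10, a serpin of myeloid precursors (17.5, 26.1 and 27.4 against 2.00, 3.87 and 6.03 CPM). Of 23 growth and repair factors 8 rose and 2 fell, with a median of 0.59. Pdgfb and Pdgfa, growth factors for mesenchyme, were at 6.66, 10.2 and 8.03 against 19.1, 24.7 and 23.5 CPM and 10.5, 10.2 and 10.8 against 24.9, 19.8 and 20.8 CPM. Postn (periostin), a product of fibroblasts and endothelium, was at 2.33, 4.48 and 2.80 against 14.7, 18.4 and 26.4 CPM and at 1.44 CPM in matIMs. Thbs1 (thrombospondin 1) fell from 3164 to 1119 CPM (log2 fold change -1.50 ± 0.30 (SE), adjusted p = 0.00148), and Hgf was at 16.5, 11.6 and 13.8 against 6.72, 2.09 and 7.88 CPM. The fibroblast and endothelial markers were highest in the same 3 tnsIM libraries, and their part in these rises was not tested.

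Of 43 S phase genes 8 rose (18.6%, against 13% of all genes tested) and 0 fell, with a median of 0.21. Mcm6, a subunit of the replication helicase, was at 26.02, 27.8 and 30.1 CPM in WT moMs and 51.6, 56.7 and 51.6 CPM in WT tnsIMs (log2 fold change 0.93 ± 0.17 (SE), adjusted p = 0.000583), Mcm3 at 30.7, 37.8 and 36.9 against 57.03, 48.8 and 50.1 CPM and Mcm2 at 12.9, 12.6 and 13.9 against 20.8, 21.8 and 25.5 CPM, and Uhrf1, which copies DNA methylation, at 1.94, 2.73 and 2.91 against 3.96, 6.98 and 7.29 CPM. With a library left out between 3 and 6 rose, and 5 or fewer did so without any of the WT moM libraries or without WT tnsIM replicate 1 or 2. Of 50 G2 and M phase genes 6 fell (12%, against 8.61% of all genes tested) and 1 rose, with a median of -0.07. The riser was Rangap1, a regulator of nuclear transport, at 48.4, 63.3 and 60.5 against 76.2, 79.1 and 71.7 CPM. The rises numbered 0 without WT moM replicate 1, WT moM replicate 3 or WT tnsIM replicate 1, 2 without WT tnsIM replicate 2 or 3, and 5 with the mouse as a replicate block. The fallers were Lbr, the lamin B receptor, at 183, 232 and 209 against 80.8, 88.8 and 99.4 CPM (log2 fold change -1.21 ± 0.19 (SE), adjusted p = 0.000136), Tmpo, at 190.4, 270.2 and 332 against 94.3, 108 and 131 CPM, Hmgb2, at 123, 126 and 136 against 62.7, 38.4 and 62.97 CPM, Aurkb, Kif23 and Anln. Aurkb, a mitotic kinase, was at 3.59, 5.84 and 6.77 against 1.75, 2.41 and 2.43 CPM, and Cdk1, the kinase that starts mitosis, at 1.08, 1.28 and 0.866 against 1.63, 2.22 and 1.61 CPM, without a call. Several of these, such as Lbr, Tmpo and Hmgb2, are also expressed in cells that do not divide. Of 18 cyclins and inhibitors tested 4 rose and 4 fell (22.2% each, against 13% and 8.61% of all genes tested), a split that was 8 and 2 with upper-quartile scaling and 5 and 1 with library totals. Ccnd2 (cyclin D2) was at 125, 99.9 and 121 against 283, 231 and 271 CPM (log2 fold change 1.18 ± 0.17 (SE), adjusted p = 8.61e-05) and reached 751 CPM in matIMs, Myc was at 38.7, 45.04 and 44.7 against 70.00, 86.8 and 66.6 CPM, and Cdkn2d, an inhibitor of the cyclin D kinases, was at 135, 175 and 148 against 34.3, 57.5 and 35.9 CPM (log2 fold change -1.84 ± 0.22 (SE), adjusted p = 1.31e-05). The risers became 2 without WT moM replicate 2, and the fallers 1 without WT moM replicate 3 and 2 without WT moM replicate 1 or 2 or WT tnsIM replicate 1 or 3. Of 27 immediate early and heat shock genes, which can respond to handling of the tissue, 2 rose (Egr2 and Egr3) and 1 fell (Fosl2), and Fos was at 3805, 3372 and 4401 against 3299.8, 3407 and 3588 CPM, without a call. The shares that rose and fell, 7.41% and 3.7%, were under the 13% and 8.61% of all genes tested. The 2 rises became 1 without WT moM replicate 2 or 3 or WT tnsIM replicate 3, and the fall was lost without WT moM replicate 2 or WT tnsIM replicate 2.

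**Figure D4:**
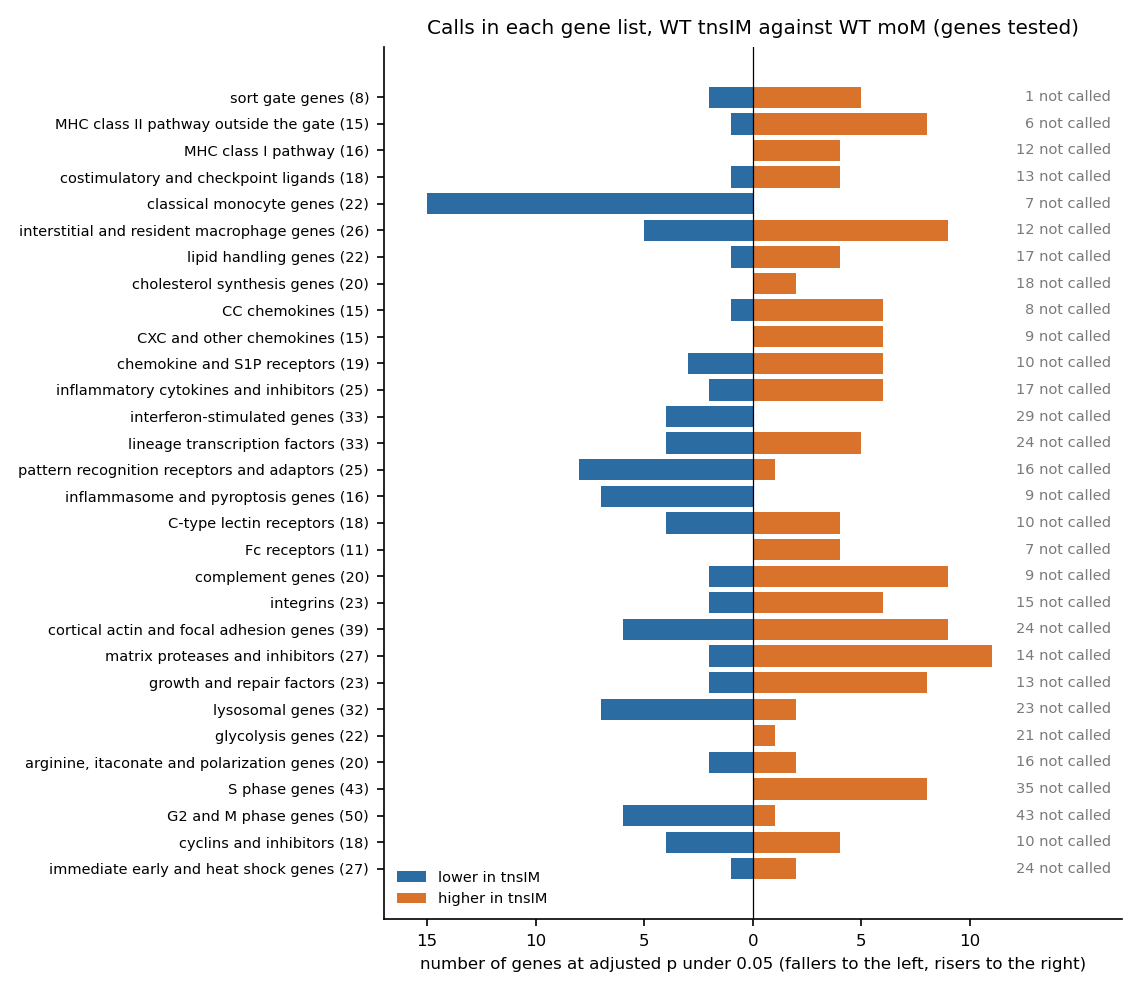
For each of 30 gene lists, the bars count the members at an adjusted p under 0.05 that were lower (to the left) or higher (to the right) in WT tnsIMs than in WT moMs, with the number tested in brackets and the number not called at the right. The longest bar to the left is that of the classical monocyte genes (15 of 22), and the longest to the right that of the matrix proteases and inhibitors (11 of 27).

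The largest rises at a mean of 10 CPM or more were mostly genes of lung epithelium. Sftpc, the surfactant protein of alveolar type 2 cells, was at 23.9, 13.9 and 17.7 CPM in WT moMs and 870.2, 1876 and 1199 CPM in WT tnsIMs (log2 fold change 6.16 ± 0.59 (SE), adjusted p = 1.42e-06), and at a mean of 114 CPM in matIMs. Sftpd was at 7.69, 2.98 and 7.17 against 412, 391 and 489 CPM and Sftpb at 1.42, 1.37 and 1.65 against 102, 66.8 and 133 CPM, both surfactant proteins. Cxcl15 (lungkine), Slc26a4 (pendrin, an anion exchanger of airway epithelium), Chia1 (acidic mammalian chitinase) and Pigr (the carrier of IgA across epithelium) also stood among these 10. So did Itih4, a plasma protein, and Mlc1, a membrane protein that was at or under 3 counts in each moM library and at least 92.2-fold higher in tnsIMs, counting each moM library at 3 counts. The 10th was Jchain, the joining chain of secreted antibody, at 0.512, 0.539 and 0.512 against 23.4, 49.5 and 42.4 CPM, and at 356 CPM in matIMs. Of 168 immunoglobulin gene segments tested 80 rose and 0 fell, against 13% and 8.61% of all genes tested. The filter on low counts used all 6 groups, so a segment could pass it through matIMs, where the B cell sum was highest. A segment that was near the floor in moMs could hardly fall, so the 0 says little. All but Jchain among the 10 were lower in the mean of matIMs than in that of tnsIMs. The sort kept CD45+ cells, which epithelium is not, and the epithelial sum was above the moM libraries in each of the 3 tnsIM libraries.

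The libraries of Ezr-KOm mice, which share no sample with the WT comparison, gave the same contrast a second time. Of the 2050 WT risers 2041 were also higher in Ezr-KOm tnsIMs than in Ezr-KOm moMs and 1271 (62%) passed the test there, against 9.23% of all genes tested that rose in Ezr-KOm mice. Of the 1361 WT fallers 1356 had the same sign and 714 (52.5%) passed, against 5.04% of all genes tested that fell. No gene was called in opposite directions. In all 2257 genes (14.3%) differed between the Ezr-KOm populations, and 3403 did with the mouse as a replicate block. Ccl22 had a log2 fold change of 4.37 ± 0.24 (SE) in Ezr-KOm mice and 4.44 ± 0.24 in WT, and Smpdl3a -2.14 ± 0.14 and -2.38 ± 0.14. Il33 had 3.86 ± 0.39 and 4.99 ± 0.41. For the difference between genotypes itself (the interaction), 0 genes had an adjusted p under 0.05 in edgeR and 0 in DESeq2, and 233 had an unadjusted p under 0.05 in edgeR. Timd4 had the widest difference among the 246 genes, with log2 fold changes of 5.52 in Ezr-KOm mice and 3.10 in WT mice. Its interaction was 2.42 on the log2 scale with an unadjusted p of 0.0096 and an adjusted p of 1.00.

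The Ezr-KOm libraries also show where the genes of the WT contrast peak over the 3 populations. Of the WT risers, 1415 (69.0%) had their highest Ezr-KOm mean in tnsIMs, 631 (30.8%) in matIMs and 4 in moMs, against 28.8%, 36.5% and 34.7% of all genes tested. Of the WT fallers, 1201 (88.2%) were highest in Ezr-KOm moMs, against 34.7% of all genes tested. Of them 751 (55.2%) were lowest in tnsIMs and 607 (44.6%) in matIMs, against 29.4% and 34.5%. Almost all of these genes (2041 of 2050 risers and 1356 of 1361 fallers) kept their sign in Ezr-KOm mice. A riser that did so cannot peak in moMs and such a faller cannot be lowest there. The excess over the shares of all genes thus partly restates that agreement. In the WT means, which were not tested here, Ccl22, Fscn1, Ccr7 and H2-DMb2 were higher in matIMs than in tnsIMs, while Sftpc, Chil1, Il33, Csf1, S1pr1 and Lyve1 were lower.

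**Figure D5:**
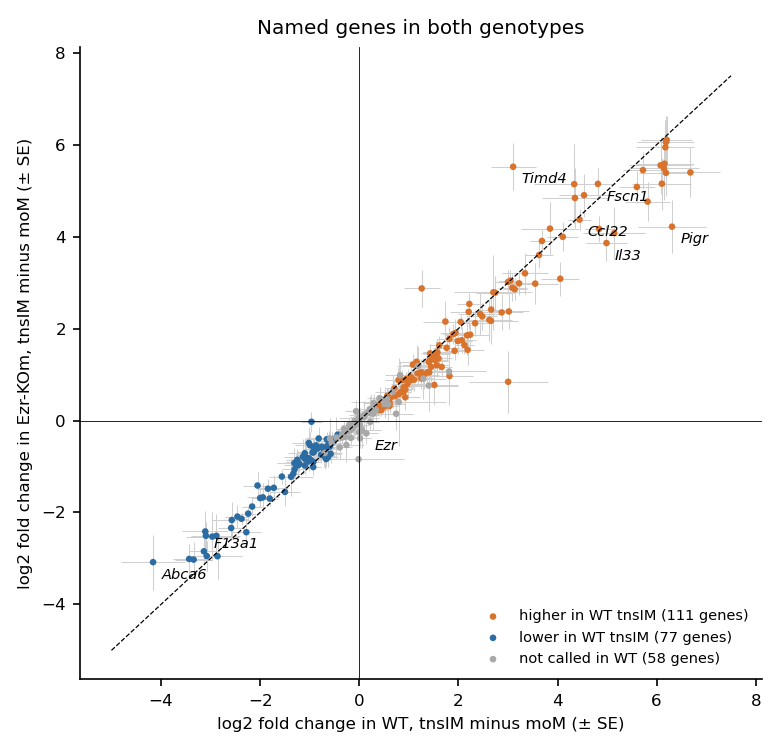
Log2 fold change of tnsIMs over moMs in WT mice against that in Ezr-KOm mice for the 246 genes of the naming rule, with SE bars and a dashed line of equal change. The 111 WT risers and 77 WT fallers keep their sign in Ezr-KOm mice, and the WT change is the larger one in 157 of these 188 genes, which were called on the WT values.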

How the data were processed

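Bulk RNA-seq libraries of moMs, tnsIMs and matIMs from WT and Ezr-KOm lungs were analysed, with 3 samples in each of 6 groups. The authors prepared libraries with SMART-Seq v4 and Nextera XT, aligned paired reads to GRCm39 with STAR 2.7.9a and deposited raw counts per gene from its GeneCounts mode with GENCODE annotation. Which strand column was used is not given in the sources used here, so reads of overlapping, antisense or near-identical genes (the H2, Ly6c, Clec4a, Naip and Nlrp1 families among them) can be shared. Group membership was taken from the labels.

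From the deposited counts, genes were filtered with filterByExpr (minimum count 10, 6 groups), scaled by TMM and fitted in 1 model over the 18 libraries with edgeR 4.0.16 (glmQLFit, glmQLFTest, R 4.3.3). The contrast was WT tnsIM minus WT moM, with Benjamini-Hochberg adjustment over all 15811 genes tested. A fold against a group at or under 3 counts in each library was taken as a lower bound. No 2 libraries of a group held identical counts. Total counts of 16512783 to 25924018 in the 6 WT libraries limit the precision for genes at few counts, and intervals between libraries cover these samples only. Named were the 12 genes of smallest p and the 10 of largest change (mean of at least 10 CPM) in each direction with a log2 fold change beyond 0.75 and no overlap, passing over unnamed gene models, pseudogenes and receptor segments, and from each list the 4 smallest p in each direction and the first 3 members. Genes named outside it, such as F10, Lyz2, Ly6g and the uncalled class II genes, were chosen after their values were seen, and not all genes the rule names are printed. The members and lists were chosen with earlier results of these data known.

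The study describes 3 samples and 3 mice per genotype, and the labels share replicate numbers between populations without naming mice. Same-numbered samples were taken as 1 mouse, since their deviations from the group means correlated at 0.25, 0.19 and 0.17 between WT moMs and WT tnsIMs, against -0.15 to -0.03 for different numbers. The main fit left this pairing out and the replicate block modelled it. The main fit called 3411 genes and the block 4747, so a gene without a call in the main fit can still differ within same-numbered pairs. Promoter sequences came from RefSeq. Alternatives used DESeq2 1.42.0, other normalizations and filters, the replicate block and each WT library left out. The scripts were tested on simulated data.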

Additional observations from a re-analysis of the deposited data

How the results depend on the processing

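Across the 15 alternatives, no gene called in both fits changed sign, and each alternative called between 63.9% and 99.7% of the 3411 genes. DESeq2 called 3926 genes. Upper-quartile scaling moved the share of higher genes among the calls from 60.1% to 69.9%, and library totals alone to 70.0%, with medians over all genes of 0.11 and 0.08 on the log2 scale against 0.01. A minimum of 10 counts in every library left 11444 genes, of which 1260 were higher, 1739 passed the rule of the study (1050 higher and 689 lower) and 1439 differed in Ezr-KOm mice. The replicate block for the mouse called 4747 genes, 2120 of them lower, and 3403 in Ezr-KOm mice. With only the 6 WT libraries 2827 genes were called, and 4179 with the block. Without single libraries the calls numbered 2309 to 3541, and the lower genes 894 (without WT moM replicate 3) to 1550. A group left with 2 libraries took its spread from the fit over all groups.

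Of the 246 genes of the naming rule 188 were called, and 143 of them were called in each alternative that gave a value. Among the genes printed, the block lost no call and added those of Arg1, Cd40, Il1a, Isg15, Itgam and Tnf. Of the other 58 genes 20 changed sign somewhere. Of those printed, Cxcl2 ranged from -0.30 to 0.35 on the log2 scale with a library left out, Fn1 from -0.53 to 0.043, Spi1 from -0.0809 to 0.38, and Nlrp3 from -0.33 to 0.19 and 0.0029 with upper-quartile scaling. The cause was not tested. Depth limits genes near 3 counts, such as Ccl19, H2-Ea and Ly6g, and a call missed there does not show that the populations were alike.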
